A study of Homo sapiens with 12 samples.

Results

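MALAT1, NEAT1, NORAD, KCNQ1OT1, GAS5 and OIP5-AS1 are long noncoding RNAs known to carry N6-methyladenosine (m6A) in human cells. They were picked by name as known m6A carriers, with earlier results of these data known, by a rule that itself uses no measured value. They are 6 of the 27411 genes in the expression table. The peaks assigned to their gene identifiers are 26 of 35341 in the control peak list and 43 of 35851 in the list from WTAP-silenced cells.

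The cells were Kasumi-1, a human acute myeloid leukaemia line with the t(8;21) translocation, given as genotype WT in both groups. One group carried a WTAP shRNA (shWTAP) and the control a scramble shRNA, both stably delivered by a lentiviral vector and selected with puromycin at 2 µg/ml from 48 h on, for at least 24 h. How many hairpins or clones stand behind a group is not given in the sources used here. Each group had 3 input libraries and 3 libraries pulled down with an anti-m6A antibody (IP), named as biological replicates, 12 in all. RNA levels were read as FPKM (fragments scaled to transcript length and to library total) in the 6 input libraries, and m6A as 1 list of IP-over-input peaks per condition. Values of single genes in the IP libraries were not analysed here. The presence of a listed peak could therefore be compared, but not the degree of methylation.

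m6A is written on nascent RNA by a complex in which METTL3 is the catalytic subunit and WTAP, a regulatory subunit, holds the complex in nuclear speckles. It falls mostly within short words of the DRACH type, in which the modified A is followed by C. Long noncoding RNAs are methylated like mRNAs. In MALAT1 the mark is known to open a hairpin so that HNRNPC can bind, and readers such as YTHDC1 bind it in the nucleus.

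The genes differ in fate and place. MALAT1 and NEAT1 are neighbours on the long arm of chromosome 11 and stay in the nucleus, MALAT1 in nuclear speckles and NEAT1 as the scaffold of paraspeckles. KCNQ1OT1 is the long antisense transcript of the imprinted KCNQ1 domain. NORAD is a cytoplasmic RNA with many binding sites for the RNA-binding protein PUM2. GAS5 is spliced, hosts small nucleolar RNAs (snoRNAs) in its introns and is degraded by nonsense-mediated decay when translated. OIP5-AS1, also called cyrano, is a spliced RNA of nucleus and cytoplasm.

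The 5′ portions of the listed peaks are shown for the genes whose RefSeq promoter window reached into a peak. These stretches lie within listed peaks, and a listed peak does not place the mark on any base. For MALAT1 and NORAD, part of each stretch lies before the RefSeq start on which its window is set. The GAACT of NORAD is in that part. Each is written 5′ to 3′ on the transcript strand in the GRCh38.p14 build, with DRACH words in capitals. The 18 words searched have A, G or T first, then A or G, then A and C, then A, C or T, and only the transcript strand was read.
MALAT1, chr11:65497688-65497787, plus strand, in the shWTAP list only: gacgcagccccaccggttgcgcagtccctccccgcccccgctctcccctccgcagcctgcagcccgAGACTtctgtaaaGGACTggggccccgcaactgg
MALAT1, chr11:65499005-65499094, plus strand, in both lists: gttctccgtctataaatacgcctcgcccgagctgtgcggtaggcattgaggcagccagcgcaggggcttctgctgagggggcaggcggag
NORAD, chr20:36050911-36051018, minus strand, in both lists: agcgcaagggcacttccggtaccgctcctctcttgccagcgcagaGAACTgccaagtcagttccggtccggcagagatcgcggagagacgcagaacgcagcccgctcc
OIP5-AS1, chr15:41283990-41284039, plus strand, in both lists: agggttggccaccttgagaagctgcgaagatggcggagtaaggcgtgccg
The MALAT1 stretch listed after silencing holds AGACT and GGACT, which begin at bases 67 and 80 of the printed run, and NORAD holds GAACT at base 46. Among stretches of the same length and place in 35116 RefSeq promoter windows, a DRACH word stood in 72.4% at the length of that MALAT1 stretch and in 74.7% at the length of NORAD's. GGACT stood in 9.54% and 10.2%. The other MALAT1 stretch and that of OIP5-AS1 hold no such word, against 69.1% and 49.6% of windows that do. A word in these letters is not a measured site, and most of each peak lies beyond the stretch shown.

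WTAP was lower in every shWTAP library. It stood at 11.5, 11.2 and 11.7 FPKM in control libraries 1, 2 and 3 and at 6.97, 6.48 and 5.69 FPKM in shWTAP libraries 1, 2 and 3. The difference was -0.76 on the log2(FPKM + 1) scale (SE 0.08, limma adjusted p = 0.00663), and the ratio of mean FPKM was 0.556. The line's markers were in place, with MPO at 1296 to 1550, KIT at 701 to 856 and RUNX1T1 at 13.5 to 18.2 FPKM, and 6 of 7 myeloblast markers reached 1 FPKM while PROM1 reached only 0.0487 FPKM. COL1A1, COL1A2, KRT18 and CD3E stayed under 1 FPKM in every library, and CD3D (48.7 to 60.4 FPKM) and EPCAM (38.6 to 50.2 FPKM) did not. The summed myeloblast markers were 2159 to 2214 FPKM in control and 2380 to 2428 FPKM in shWTAP libraries, and the summed fibroblast markers COL1A1 and COL1A2 were 0 to 0.0167 and 0.159 to 0.366 FPKM. Their part in the differences given here was not tested. Control 3 and shWTAP 1 stood apart from the other libraries. Mitochondrial mRNA took 0.634% and 0.631% of their summed FPKM, against 0.300% to 0.333% in the other 4. Sequencing depth is unknown, since FPKM sums (177774 to 187182) carry none.

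Of the 5 long noncoding RNAs that passed the filter of 1 FPKM in at least 3 libraries, none was called different between shWTAP and control by limma at an adjusted p under 0.05, and 1, NEAT1, had an unadjusted p under 0.05. Over all 11383 tested genes 3.89% were called, 1.48% higher and 2.42% lower (168 and 275 genes, or 327 and 345 after quantile normalization), and 23.5% had an unadjusted p under 0.05. KCNQ1OT1 was listed but stayed under the filter and was not tested. The median difference of the 5 was -0.002 on the log2(FPKM + 1) scale, against -0.03 over all tested genes. In bulk RNA, fewer cells with a transcript and less of it per cell cannot be told apart. For a single gene, the smallest 2-sided p that exact permutation of 3 against 3 libraries can give is 0.1.

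**Figure D1:**
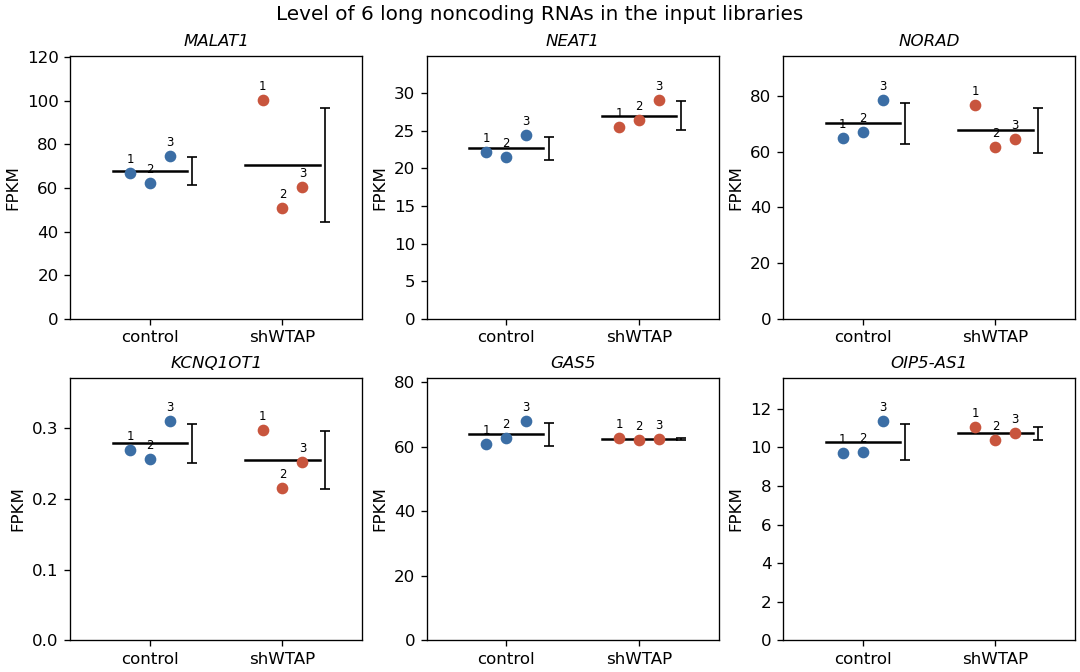
FPKM (vertical axes, each starting at 0) of the 6 long noncoding RNAs in 3 control (blue) and 3 shWTAP (red) input libraries, with replicate numbers, group means (lines) and SDs (bars). The groups are apart for NEAT1 and overlap for the other 5, and MALAT1 spans 50.7 to 100.3 FPKM within the shWTAP group.

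In control cells the order of levels was NORAD (70.2 ± 7.40 FPKM), MALAT1 (67.8 ± 6.36), GAS5 (63.8 ± 3.59), NEAT1 (22.7 ± 1.51), OIP5-AS1 (10.3 ± 0.926) and KCNQ1OT1 (0.278 ± 0.0280; SD, n = 3 for each). The 6 values of each neighbouring pair among the first 3 overlapped, and the 3 libraries of each later gene lay below all 3 of the gene before it. NORAD, MALAT1 and GAS5 ranked 386, 407 and 435 among the listed genes, while KCNQ1OT1 ranked 14554. In shWTAP cells the first 3 were MALAT1 (70.5 ± 26.3 FPKM), NORAD (67.7 ± 8.16) and GAS5 (62.3 ± 0.311), again with overlapping values. Together the 6 took 0.117% to 0.148% of the summed FPKM of a library. The RNA was poly(A)-selected, and both MALAT1 and the long NEAT1 isoform are known to end in a triple helix in place of a poly(A) tail. How far selection lowered their FPKM was not tested.

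NEAT1 was the 1 gene of the 6 whose groups did not overlap. Its level was 22.2, 21.5 and 24.4 FPKM in the control libraries and 25.4, 26.4 and 29.1 FPKM in the shWTAP libraries. Every shWTAP library was thus above every control library, though shWTAP 1 exceeded control 3 by little. Groups stood apart in 28.2% of all tested genes, with shWTAP higher in 12.1%, and the 1 of 5 is to be read against these shares. The means were 22.7 ± 1.51 and 27.0 ± 1.89 FPKM (SD, n = 3), a ratio of 1.19. The log2 difference was 0.24 (SE 0.08, 95% interval 0.06 to 0.43) with a limma p of 0.0170 and an adjusted p of 0.128. The exact permutation p was 0.1, the smallest this design allows. Between control 3 and shWTAP 1, the libraries high in mitochondrial mRNA, the difference was 0.06, and among the other 4 libraries it was 0.33. Without both of these libraries the limma adjusted p was 0.0150, when 27.6% of all tested genes were called. Without shWTAP 1 alone the difference was 0.28 with an adjusted p of 0.0360, when 24.2% were called. Over the other alternatives tried the adjusted p lay between 0.0691 and 0.374.

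MALAT1 varied more within the shWTAP group than between the groups. It stood at 66.8, 62.0 and 74.6 FPKM in the control libraries and at 100.3, 50.7 and 60.3 FPKM in the shWTAP libraries. The highest and the lowest of all 6 values both came from shWTAP cells, 1.98 times apart, and the coefficient of variation was 37.3% there against 9.38% in control cells. The log2 difference was -0.002 (SE 0.23, 95% interval -0.53 to 0.53, limma adjusted p = 0.997). That interval runs from 0.691 to 1.44 times the control level, the widest of the 5. The difference was 0.42 between control 3 and shWTAP 1 and -0.21 among the other 4 libraries. Without shWTAP 1 it was -0.28 with an adjusted p of 0.0816, and without shWTAP 2 it was 0.20 with an adjusted p of 0.679.

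NORAD was highest in 1 library of each group. It stood at 64.8, 67.1 and 78.6 FPKM in the control libraries and at 76.9, 61.6 and 64.4 FPKM in the shWTAP libraries. Its highest values came from control 3 and shWTAP 1, which were also high in mitochondrial mRNA, and the remaining 4 lay between 61.6 and 67.1 FPKM. The log2 difference was -0.05 (SE 0.11, 95% interval -0.31 to 0.20, limma adjusted p = 0.795). It was -0.03 between control 3 and shWTAP 1 and -0.07 among the other 4 libraries.

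**Figure D2:**
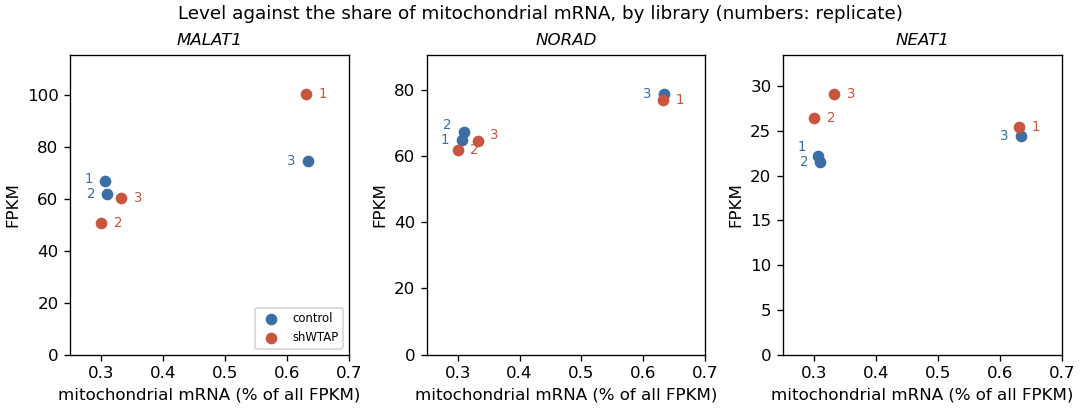
FPKM of MALAT1, NORAD and NEAT1 (vertical axes) against the share of summed FPKM from 13 mitochondrial mRNAs (horizontal axes, in percent), 1 point per input library. Control 3 and shWTAP 1 lie near 0.63%, where NORAD is highest in both, MALAT1 is highest in shWTAP 1, and NEAT1 lies between the other control and shWTAP libraries.

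As a description over 6 libraries, Pearson's r with the mitochondrial share was 0.963 for NORAD, 0.848 for KCNQ1OT1, 0.832 for MALAT1, 0.827 for OIP5-AS1, 0.707 for GAS5 and 0.091 for NEAT1. These values rest mostly on control 3 and shWTAP 1. MALAT1, NORAD and KCNQ1OT1 varied together across the libraries, with r of 0.848 to 0.924 in their 3 pairs. NEAT1 had r of -0.11 with MALAT1 and -0.12 with NORAD. The ratio of MALAT1 to NEAT1, whose genes are neighbours, was 3.01, 2.89 and 3.06 in the control libraries and 3.94, 1.92 and 2.07 in the shWTAP libraries. The control ratios were thus close together, and the shWTAP ratios lay on both sides of them. The part of RNA quality or library making in these shared shifts was not tested.

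GAS5 was the steadiest. It stood at 60.9, 62.6 and 67.8 FPKM in the control libraries and at 62.7, 62.1 and 62.2 FPKM in the shWTAP libraries. All 3 shWTAP values lay inside the control range. The log2 difference was -0.03 (SE 0.06, 95% interval -0.18 to 0.12, limma adjusted p = 0.794), which bounds the level at 0.882 to 1.08 times control. OIP5-AS1 stood at 9.73, 9.76 and 11.3 FPKM in the control libraries and at 11.1, 10.4 and 10.7 FPKM in the shWTAP libraries. Its shWTAP values also lay inside the control range, and the log2 difference was 0.06 (SE 0.08, 95% interval -0.12 to 0.24, limma adjusted p = 0.687). KCNQ1OT1 stood at 0.269, 0.255 and 0.309 FPKM in the control libraries and at 0.298, 0.215 and 0.252 FPKM in the shWTAP libraries. Its groups overlapped, and the exact permutation p of the log2 difference of -0.03 was 0.4.

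**Figure D3:**
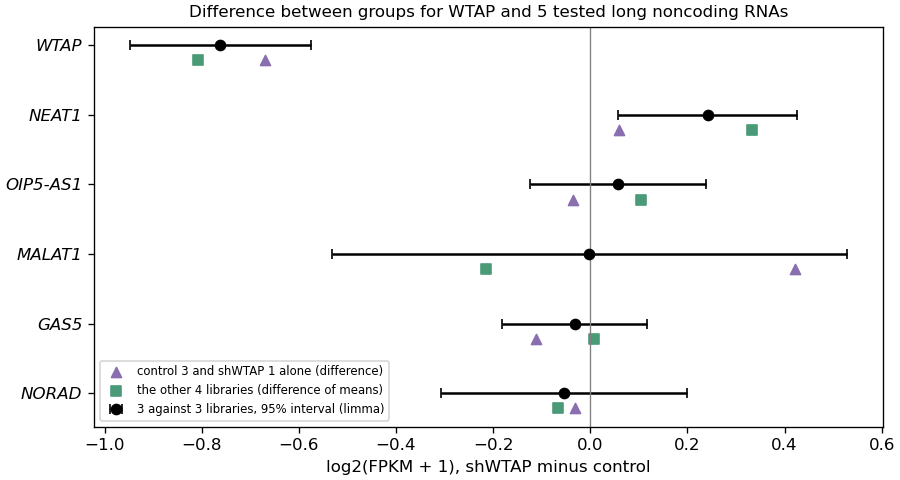
Difference in log2(FPKM + 1), shWTAP minus control, for WTAP and the 5 tested long noncoding RNAs, with limma 95% intervals (black), the difference between control 3 and shWTAP 1 alone (triangles) and the difference of means among the other 4 libraries (squares). WTAP lies below 0, NEAT1 lies above 0 before adjustment over all genes, and the intervals of the other 4 span 0.

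Genes that overlap these loci were also listed. GAS5-AS1, on the strand opposite GAS5, stood at 0.339, 0.243 and 0.308 FPKM in the control libraries and at 0.567, 0.602 and 0.547 FPKM in the shWTAP libraries. It was higher in all 3 shWTAP libraries but stayed under the filter and was not tested. AC087721, on the same strand as OIP5-AS1, stood at 0.662, 1.03 and 0.768 FPKM in the control libraries and was listed at 0, 0 and 0.508 FPKM in the shWTAP libraries. AC087721 also stayed under the filter and was not tested. Whether fragments were counted by strand, and how those shared by OIP5-AS1 and AC087721 were split, is not given in the sources used here. When AC087721 was added, the log2 difference of OIP5-AS1 was -0.02 in place of 0.06. KCNQ1, the protein-coding gene opposite KCNQ1OT1, stayed at or below 0.0187 FPKM.

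The genes whose levels ran most alike each RNA over the 6 libraries were found among 6248 genes with a mean of at least 5 FPKM (6249 for KCNQ1OT1). They were DEGS1, ACACA and MITD1 for MALAT1 (r of 0.989 to 0.992), TAF11, RAB5B and KIAA0319L for NEAT1 (0.989 to 0.992) and SATB1, EDIL3 and DNAJC3 for NORAD (0.997 to 0.999). They were RB1CC1, TMF1 and PHIP for KCNQ1OT1 (0.996 to 0.998), SHC1, SERINC5 and SAT1 for GAS5 (0.989 to 0.995) and GID8, DDX17 and LYRM7 for OIP5-AS1 (0.986 to 0.990). For NORAD 221 genes exceeded r of 0.95 and for GAS5 14 did. With 6 points such values describe these libraries only.

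The m6A peaks of the 6 RNAs were then set side by side between the lists. Of the 26 control peaks 25 (96.2%) and of the 43 shWTAP peaks 27 (62.8%) were overlapped by at least 1 bp by a peak of the other list, against 82.6% and 82.8% of all peaks. KCNQ1OT1 held most of the peaks and nearly all of those without a partner. Without it, 10 of 10 control peaks and 11 of 12 shWTAP peaks were overlapped. These are counts of listed entries, not of separate regions. In each list both NEAT1 regions were entered more than once, and the OIP5-AS1 entries overlap each other at the 5′ end. One shWTAP entry of NEAT1 lies outside the gene. The fold enrichment is the authors' IP-over-input ratio for a peak, with a median of 6.77 in the control list and 6.75 in the shWTAP list. Each condition had 1 list, so peaks had no replicates and the lists were not tested against each other.

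NEAT1 (ENSG00000245532, chr11:65422774-65445540, plus strand) carried the strongest enrichment of the 6. Its peaks covered bases 1 to 2633 from the 5′ end in the control list, entered for a pair of overlapping transcript models with fold enrichments of 178 and 212. The shWTAP list covered bases 1 to 2603 with 80.8 and 76.9. The control values exceeded 99.9% of all control peaks and the larger shWTAP value 99.5% of all shWTAP peaks. A second region at bases 3141 to 3770, also entered more than once in each list, had fold enrichments of 5.57 and 5.10. No peak lay beyond base 3770 of the 22767 bases of the gene in either list. Absence of a listed peak in poly(A)-selected RNA does not show absence of m6A. Input fragments beyond that base were not counted here. The short NEAT1 isoform is known to be polyadenylated near the 5′ end of the locus and the long isoform runs on. Peak cover was 14.3% of the gene interval in control and 14.2% after silencing, and 3233 bp were shared. One more shWTAP peak assigned to NEAT1 (chr11:65404989-65412837, fold 18.3) lies upstream of the gene. It overlaps a control peak that was assigned to FRMD8 with a fold of 18.2, so the difference in the count is one of assignment.

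MALAT1 (ENSG00000251562, chr11:65497688-65506516, plus strand) held peaks in the same places in both lists. The first covered bases 1318 to 3592 from the 5′ end with fold enrichments of 8.32 in control and 8.37 after silencing. The next covered bases 4729 to 5418 in control (fold 12.4) and 4729 to 5447 after silencing (fold 8.47). An additional peak at bases 1 to 510 stood in the shWTAP list only, with a fold of 10.6 and a deposited p-value of 0.0015. That peak holds the stretch printed above with AGACT and GGACT. Its p-value is far weaker than those of the other MALAT1 peaks, which were deposited as 0, and 23.6% of shWTAP peaks had a larger one. Peaks covered 33.6% of the gene interval in control and 39.7% after silencing.

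NORAD (ENSG00000260032, chr20:36045618-36051018, minus strand) had its main peak at the 5′ end in both lists. It covered bases 1 to 1403 in control with a fold of 38.7, above 97.2% of control peaks, and bases 1 to 1433 after silencing with a fold of 77.2, above 99.5% of shWTAP peaks. The stretch with GAACT printed above is its start. A short peak farther along the 5401 bases of the gene covered bases 4058 to 4178 (fold 1.93) and 4029 to 4178 (fold 2.59). The listed fold was thus larger after silencing for NORAD and smaller for NEAT1. The deposited log10 p was lower after silencing for both. For the 5′ peaks of NEAT1 it was -3460 and -3450 in control and -4660 and -4600 after silencing. For the 5′ peak of NORAD it was -1720 and -2210. The spread of such values between replicates is not known.

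**Figure D4:**
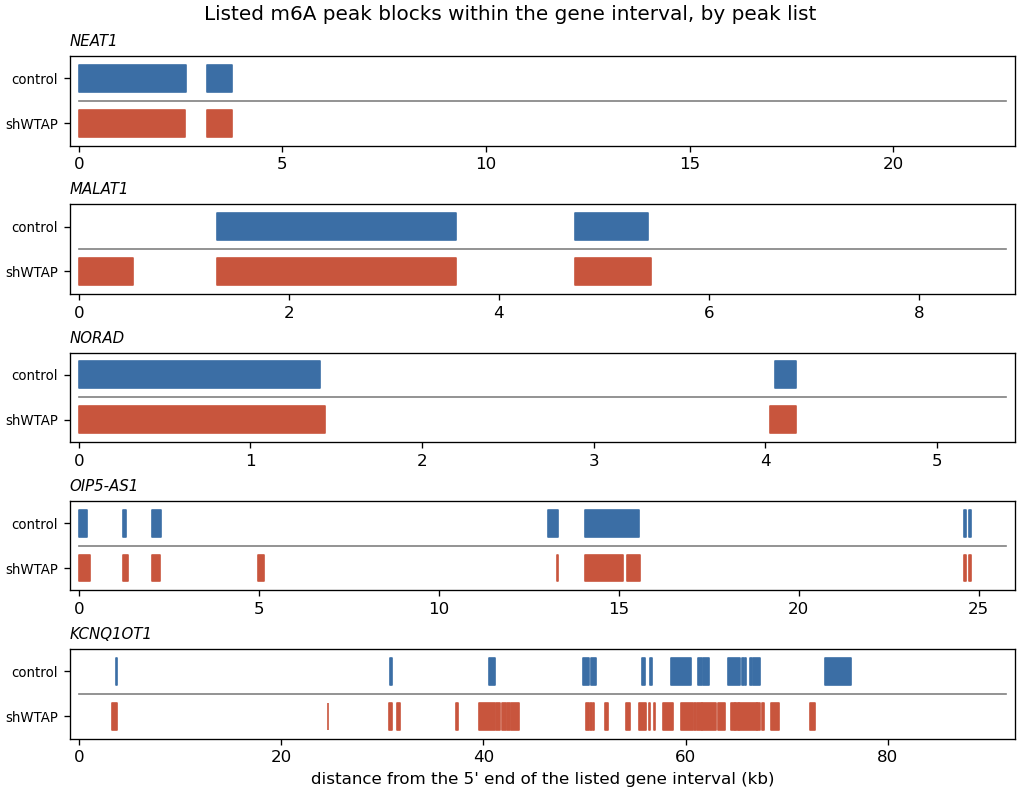
Exonic blocks of the peaks listed within the gene interval of 5 long noncoding RNAs, against the distance from the 5′ end of the interval in kb, for the control list (blue, above) and the shWTAP list (red, below), with peaks assigned to overlapping genes included. NEAT1, MALAT1 and NORAD show the same main blocks in both lists, MALAT1 has 1 more block at its 5′ end after silencing, and KCNQ1OT1 shows scattered blocks that coincide only in part.

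KCNQ1OT1 (ENSG00000269821, chr11:2608328-2699994, minus strand) was the least abundant of the 6 and held the most peaks, 16 in the control list and 31 in the shWTAP list. Its gene interval, at 91667 bases, is also the longest of the 6. The median gene with a peak had 2, and 4 genes of the control list and 0 of the shWTAP list had more than KCNQ1OT1. Their fold enrichments ran from 2.50 to 16.9 in control (median 8.46) and from 2.89 to 18.3 after silencing (median 7.72), somewhat above the medians of the lists. Their deposited p-values were weak. No deposited p-value was smaller than 0.00011 in control or 3e-07 after silencing. The false discovery rate exceeded 0.05 for 7 of the 16 and 15 of the 31, against 14.3% and 12.0% of all peaks in the lists. Cover was 10634 bp in control and 16107 bp after silencing, or 11.6% and 17.6% of the gene interval. The 5749 shared bp were 54.1% of the control cover and 35.7% of the shWTAP cover. With peaks of a false discovery rate of at most 0.01 and a fold of at least 2, 4 and 12 were left. A peak of the other list that passed the same limits overlapped 1 of the 4 and 1 of the 12, against 87.5% and 85.7% of all such peaks, and any peak of the other list overlapped 4 and 7, against 93.3% and 92.9%. The 12735 listed genes at or below its mean level had an assigned peak in both lists in 27.0% of cases.

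OIP5-AS1 (ENSG00000247556, chr15:41283990-41309737, plus strand) had 2 assigned peaks in each list, with fold enrichments of 2.36 to 3.14, and all were overlapped. The first begins at the transcript start and holds the stretch printed above. Assigned peaks covered 316 bp of OIP5-AS1 in control and 642 bp after silencing. The 316 shared bp were 49.2% of the shWTAP cover. The shWTAP peak that reaches base 24786 also overlaps a control peak assigned to AC087721 by 150 bp. With peaks of every gene in the interval, cover was 2439 bp in control and 2397 bp after silencing. The most enriched peak within the OIP5-AS1 interval was assigned to AC087721 instead. It lies at chr15:41297034-41299551 in the control list with a fold of 27.4. The shWTAP list has chr15:41297274-41299102 with a fold of 5.12 and chr15:41299222-41299581 with a fold of 3.30 in its place. The RNA that these fragments came from cannot be told apart, since both genes run on the plus strand. The listed FPKM of AC087721, given above, was under the filter and not tested, and its part in these folds was not tested.

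GAS5 (ENSG00000234741, chr1:173858559-173868882, minus strand) had no assigned peak in either list, whereas the 4 other tested RNAs had peaks in both, as did 72.8% of all tested genes. A shWTAP peak assigned to ZBTB37 on the opposite strand touched 105 bp of its interval. Among the 431 tested genes at or above the mean level of GAS5, 33.4% had no peak in either list, against 18.4% of all 11383 tested genes. Absence of a listed peak does not show absence of m6A, since the peaks set IP against input in poly(A) RNA fragments and the depth is unknown. Of the 21 tested snoRNA host genes, the class to which GAS5 belongs, 11 (52.4%) had no peak in either list and 7 had one in both. The abundant hosts SNHG1 (64.4 FPKM in control), SNHG29 (64.4) and SNHG32 (61.1) were among those without a peak, while SNHG6 (54.7) had one in the shWTAP list and SNHG16 (36.4) in the control list. Of 14 other tested long noncoding RNAs, 10 had a peak in both lists and 3 in neither.

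Genes of related function were read from the same fit. None of the 21 snoRNA hosts and none of the 14 other long noncoding RNAs was called by limma at an adjusted p under 0.05. Their medians were 0.01 and -0.10 on the log2(FPKM + 1) scale, with 12 and 5 positive differences. The groups stood apart for 5 genes of each list, against 28.2% of all tested genes. The hosts closest to the threshold were SNHG12 (3.95 ± 0.277 to 2.90 ± 0.222 FPKM, log2 difference -0.34, adjusted p = 0.0589) and SNHG25 (-0.52, 0.0877). SNHG8 (-0.29, 0.0921) and SNHG29 (0.30, 0.136) came next. Without shWTAP 1, 5 of the 21 hosts and 2 of the 14 other long noncoding RNAs passed, as did 24.2% of all tested genes.

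Paraspeckle proteins, which assemble on NEAT1, gave 2 calls among 16 tested, both lower, with a median of -0.07. Over all tested genes 2.42% were called lower. The list was chosen with earlier results of these data known, so its share of calls is a description only. NUDT21, the RNA-binding subunit of cleavage factor Im, which guides the choice of poly(A) site and is known to act on the NEAT1 isoforms, stood at 29.7, 28.9 and 33.2 FPKM in control and at 22.7, 18.1 and 17.5 FPKM after silencing. All shWTAP values lay below all control values (log2 difference -0.64, SE 0.11, limma adjusted p = 0.0272). CPSF7, a partner subunit of the same factor, stood at 25.4, 23.3 and 24.6 FPKM in control and at 20.1, 19.1 and 19.1 FPKM after silencing (-0.32, SE 0.06, adjusted p = 0.0441). The core proteins NONO (126.9 to 123.7 FPKM, adjusted p = 0.721) and SFPQ (67.9 to 65.9, adjusted p = 0.807) were not called, nor was CPSF6 (21.1 to 21.5 FPKM, adjusted p = 0.878). The count of 2 was 0 without any 1 of the 3 control libraries, shWTAP 2 or shWTAP 3, when 0.404% to 0.712% of all tested genes were called. It was 6 without shWTAP 1, when 24.2% were called, and 0 with the replicate number as a block, when 0.676% were called. WTAP itself stayed under an adjusted p of 0.05 in all of these.

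None of the 13 nuclear speckle and MALAT1 processing factors was called, with a median of -0.05. The closest were SRSF2, a splicing factor (96.9 ± 7.99 to 110.4 ± 0.163 FPKM, limma adjusted p = 0.173), and HNRNPC, which binds m6A-opened hairpins (100.1 ± 4.03 to 85.2 ± 11.9 FPKM, adjusted p = 0.205). YTHDC1, the nuclear m6A reader, stood at 13.8 ± 0.647 and 13.4 ± 1.47 FPKM (adjusted p = 0.792). Of the 6 tested partners of NORAD none was called. PUM2 stood at 19.7, 20.0 and 23.3 FPKM in control and at 16.9, 14.2 and 15.2 FPKM after silencing, with groups apart (log2 difference -0.42, SE 0.09, adjusted p = 0.0545). KHDRBS1, the RNA-binding protein SAM68, stood at 48.1 ± 3.97 FPKM in control and 58.2 ± 2.53 FPKM after silencing (adjusted p = 0.0963). None of the 14 nonsense-mediated decay factors was called, with a median of -0.14, and MAGOH of the exon junction complex came closest (28.6 ± 1.77 to 21.3 ± 4.73 FPKM, adjusted p = 0.133). Without shWTAP 1 the calls were 5 of 13, 4 of 6 and 6 of 14 in these 3 lists, against 24.2% of all tested genes.

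**Figure D5:**
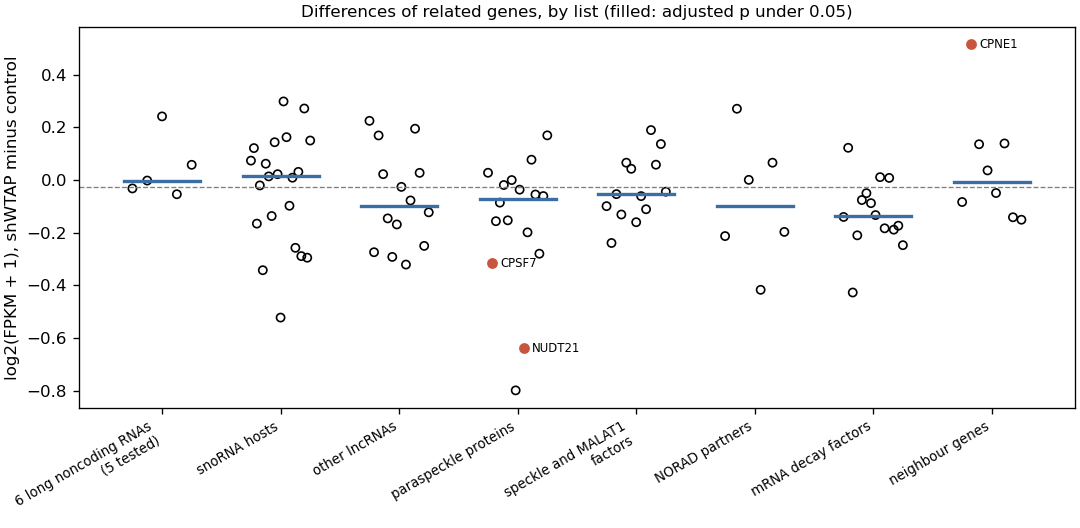
Difference in log2(FPKM + 1), shWTAP minus control, of the tested members of 8 lists, 1 point per gene, with the median of each list (blue line) and of all tested genes (dashed line). Filled points are the 3 genes with a limma adjusted p under 0.05, NUDT21, CPSF7 and CPNE1, and the lowest open point is MATR3.

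Among 8 tested genes that overlap or neighbour the 6 loci, 1 was called, higher, as were 1.48% of all tested genes. This list, too, was chosen with earlier results of these data known. CPNE1, a calcium-dependent phospholipid-binding protein whose gene lies near NORAD on chromosome 20, stood at 11.2, 9.76 and 10.1 FPKM in control and at 13.9, 16.3 and 15.4 FPKM after silencing. Its groups did not overlap (log2 difference 0.52, SE 0.08, limma adjusted p = 0.0236). The count was 0 without any 1 control library, shWTAP 2 or shWTAP 3, when 0.404% to 0.712% of all tested genes were called. It was 3 without shWTAP 1, when 24.2% were called. NORAD itself showed -0.05 in the same fit. MATR3 (50.8 ± 7.96 to 35.4 ± 24.3 FPKM, adjusted p = 0.408) has 2 rows in the table, of which the one with the higher mean was read, and how fragments were split between them is not given in the sources used here.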

How the data were processed

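RNA levels of 6 input libraries were read as FPKM values, as the authors deposited them, scaled to transcript length and library total. Per the submitters' processing notes, fastp, HISAT2, ChIPseeker and HOMER were used, without a stated version or role. Not given in the sources used here are the quantifier, peak caller, genome build, annotation and any pooling of replicates. The IP-over-input ratio (fold enrichment), p-value, and the log10 scores of p and of the false discovery rate were read for each peak as deposited by the authors. Peak starts were moved to 1-based positions.

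Differences between shWTAP and control in log2(FPKM + 1) were tested by moderated linear models (limma 3.58.1 under R 4.3.3, with a mean-variance trend) for genes with at least 1 FPKM in at least 3 libraries, with Benjamini-Hochberg adjustment over all of them; the procedure was tested on simulated data. The scale understates changes of low genes. Overlap of the exonic blocks of peaks was found by bedtools 2.31.1, strand ignored, at a minimum of at least 1 bp. Sequences are RefSeq promoter windows (250 bases before to 50 after a start, GRCh38.p14), and 4 of the 6 genes had one. The files name no build, but 99.9% of 20184 symbols matched to RefSeq overlapped the RefSeq gene.

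Some listed genes are not reported here. The members and all gene lists were chosen with earlier results of these data known. Named genes were the members, WTAP, the 4 listed genes of smallest adjusted p per list and the 3 most alike genes per member; NONO, SFPQ, CPSF6, MATR3, YTHDC1 and the overlapping genes were named after their values were seen.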

Additional observations from a re-analysis of the deposited data

How the results depend on the processing

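The count of called genes (443) was 82 with no filter on low values, 672 after quantile normalization, 1938 (17% of tested genes) with control 3 and shWTAP 1, the libraries high in mitochondrial mRNA, as a block, 3142 (27.6%) when both were left out, and 46 to 2751 when 1 library at a time was left out, highest without shWTAP 1. Same-numbered libraries deviated with r of -0.11, 0.17 and -0.14, so the replicate numbers were not taken as pairs; with the replicate number as a block 77 genes were called, with 0 paraspeckle proteins and 0 neighbour genes among them, and the adjusted p of NEAT1 was 0.170. The log2 difference of MALAT1 was 0.055 after quantile normalization and 0.030 after median centring, and that of GAS5 was 0.054 after quantile normalization and 0.0083 without control 3 and shWTAP 1, none past the threshold. With 1 library left out the difference ranged from -0.28 to 0.20 for MALAT1, -0.15 to 0.029 for NORAD, -0.064 to 0.012 for GAS5, 0.19 to 0.29 for NEAT1, 0.02 to 0.12 for OIP5-AS1 and -0.82 to -0.69 for WTAP. NEAT1 passed without control 3 and shWTAP 1 together (0.33) and without shWTAP 1 (0.28); no other setting brought any of the 5 tested RNAs past the threshold. The cause of these shifts was not tested.

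Calls in the lists moved as follows. When control 3 and shWTAP 1 were left out together, 27.6% of all tested genes were called. The calls were then 6 of 21 snoRNA hosts, 6 of 14 other long noncoding RNAs and 8 of 16 paraspeckle proteins. They were also 6 of 13 speckle and MALAT1 factors, 4 of 6 NORAD partners, 7 of 14 decay factors and 4 of 8 neighbour genes. With those libraries as a block 17% of all tested genes were called. The first 6 lists then gave 3, 1, 5, 1, 2 and 1. Quantile normalization gave 1 snoRNA host and 2 NORAD partners, when 5.9% of all tested genes were called. Median centring and the filter at 5 FPKM each gave 1 NORAD partner, when 5.82% and 7.08% were called. No filter gave 0 paraspeckle proteins and 0 neighbour genes, when 0.299% of all tested genes were called. Dropping the variance trend gave 1 paraspeckle protein, when 3.43% were called. With 1 library left out the counts ranged from 0 to 5 (snoRNA hosts), 0 to 2 (other long noncoding RNAs) and 0 to 6 (paraspeckle). They ranged from 0 to 5 (speckle), 0 to 4 (NORAD partners), 0 to 6 (decay factors) and 0 to 3 (neighbours). Over all tested genes 0.404% to 24.2% were called in these settings, most without shWTAP 1.

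With peaks of a false discovery rate of at most 0.01 and a fold of at least 2, overlapped peaks were 10 of 13 in the control list and 11 of 24 in the shWTAP list, against 87.5% and 85.7% of all peaks at these limits, KCNQ1OT1 kept 4 and 12, and NORAD 1 in control. Counting every peak within the gene interval gave OIP5-AS1 5 and 6, MALAT1 5 in the shWTAP list and GAS5 1 there. Depth is unknown, and 3 libraries a group limit every interval given.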

Other observations

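Peaks assigned to other genes also lay inside the intervals of NEAT1 and MALAT1. Within NEAT1 they were 2 in the control list and 3 in the shWTAP list, all assigned to short AP000944 genes on the same strand, and within MALAT1 1 and 2, assigned to AP000769 genes. The AP000944 peak at chr11:65423960-65424118 had a fold of 2.65 in both lists, and lies inside the NEAT1 region listed with a fold of 178 in control. One of the AP000769 peaks after silencing (chr11:65498010-65498207, fold 11.6, deposited p-value 0.0021) was assigned to the minus strand and overlaps the 5′ peak of MALAT1 that stood in the shWTAP list only. The AP000769 and AP000944 genes of the expression table that lie on the plus strand stayed at or under 0.366 FPKM in all 6 input libraries.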
